A study of Mus musculus with 12 samples.

Results

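The genes described here carry fatty acids into the cell, activate them and oxidise them. A list of 42 genes was divided by step into uptake and activation, the carnitine shuttle, mitochondrial oxidation, peroxisomal oxidation and a pair of transcriptional coactivators. A gene entered through the probe sets annotated to its symbol alone, and where it had several, through the one with the highest mean over the 12 arrays. This gave 39 of the 42 genes, out of 22180 genes with such a probe set; Acsl1, Acsl3 and Cpt1b had none. Of the 39, 34 had a mean log2 value of 6 or more, and Hadhb, Acaa1a, Acaa1b, Acox2 and Ppargc1a lay below it.

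The arrays came from mouse embryonic stem (ES) cells of line K3, in a study profiling the target genes of ERRb, an orphan nuclear receptor whose gene is Esrrb. KO/ERRb-wt cells were Esrrb knockout cells transduced with a lentivirus expressing ERRb, KO/mock cells were knockout cells with the mock label, and WT/mock cells had the intact gene and the mock label. The sources used here do not give what the mock cells received, the promoter in the virus or the position of the lesion. All cells were kept in N2B27 medium with CH99021 and PD0325901, inhibitors of the kinases GSK3 and MEK, and LIF, and then spent 3 days in N2B27 with both inhibitors and doxycycline, LIF not being named for that step. Each group had 4 arrays, from 2 clones with 2 arrays each: clones 12-1 and 12-3 for KO/ERRb-wt, 8-3 and 8-4 for KO/mock, and 5-2 and 5-5 for WT/mock. The labels name the arrays of a clone biological replicates and do not say that they were separate cultures, so p-values measure the spread between these arrays, and a group difference also holds whatever sets its clones apart. Values below are log2 expression, and each group's 4 values are given in the order of its clones as named here, replicate 1 before replicate 2.

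Fatty acids enter cells with the help of transport proteins, and acyl-CoA synthetases trap them as CoA esters. Long chains then cross the mitochondrial membranes as carnitine esters, a step gated by CPT1, and repeated rounds of dehydrogenation, hydration, oxidation and thiolysis shorten them, while very long and branched chains are first shortened in peroxisomes. In heart, muscle and brown fat the related receptors ERRa and ERRg, with their PGC-1 coactivators, drive many of these genes; in ES cells ERRb is best known as a factor of naive pluripotency.

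Esrrb, the targeted gene, was measured by 1 probe set, which read 6.99, 6.76, 6.50 and 6.68 on the KO/ERRb-wt arrays, 7.48, 8.00, 7.74 and 7.41 on the KO/mock arrays, and 7.38, 7.38, 7.39 and 7.38 on the WT/mock arrays. The KO/mock arrays all lay above the WT/mock arrays, and the KO/ERRb-wt arrays all lay below both. The KO/ERRb-wt difference was -0.93 ± 0.13 (SE) from KO/mock (limma, adjusted p = 0.00436) and -0.65 ± 0.13 from WT/mock (adjusted p = 0.00557); that of KO/mock from WT/mock was 0.28 ± 0.13 (adjusted p = 0.324). Levels of this probe set did not follow the labels: KO/mock was not lower than WT/mock, and KO/ERRb-wt was not higher than KO/mock. The kind of lesion, the transduced sequence and the probe positions are not in the sources used here, so the labels cannot be checked. Without clone 12-3 both calls ended (adjusted p up to 0.0768), and without clone 5-2 that against WT/mock did too. Every direction below is a difference between arrays as labelled.

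Array medians lay between 5.00 and 5.07. Of 12 ES cell markers, 11 had a mean of at least 6. The mean level of all 12 per array was 9.89 to 9.93 on the KO/ERRb-wt arrays, 9.95 to 9.98 on the KO/mock arrays and 9.90 to 10.05 on the WT/mock arrays. Among these markers, 2 were called higher and 5 lower in KO/ERRb-wt than in WT/mock cells, 0 and 4 in KO/ERRb-wt than in KO/mock cells, and 1 and 2 in KO/mock than in WT/mock cells (limma). In the same order, 20.8%, 4.40% and 5.58% of all genes were called. Between KO/ERRb-wt and WT/mock, Lin28a differed by 0.76 and Sall4 by 0.37. The lower markers there were Klf4 at -0.78, Fgf4 at -0.44, Nanog at -0.40, Utf1 at -0.27 and Tfcp2l1 at -0.21. The 8 feeder fibroblast markers averaged 4.82 to 4.95, 4.70 to 4.80 and 4.73 to 4.84 on the KO/ERRb-wt, KO/mock and WT/mock arrays, with 1 of them at or above 6, and Thy1 was called higher in KO/ERRb-wt than in WT/mock cells, at 0.35 (limma, adjusted p = 0.0318). Markers of other lineages were called too. Of 5 neuroectoderm markers, Tubb3 differed by 0.71 and Sox1 by -0.67 between KO/ERRb-wt and WT/mock, Tubb3 by 0.67 between KO/ERRb-wt and KO/mock, and Sox1 by -0.62 between KO/mock and WT/mock. Of 5 trophoblast markers, Cdx2 differed by 0.54 and Krt18 by -0.56 between KO/ERRb-wt and WT/mock, and Krt18 by -0.61 and Krt8 by -0.44 between KO/mock and WT/mock. Of 9 primitive endoderm markers, Gata4 differed by -0.56 between KO/ERRb-wt and WT/mock, Lama1 by -0.66, Sox7 by -0.63 and Dab2 by 0.34 between KO/ERRb-wt and KO/mock, and Lama1 by 0.58 and Gata4 by -0.51 between KO/mock and WT/mock. No mesoderm, two-cell-stage or hepatocyte marker was called. The part of these markers in the results below was not tested. In bulk samples, fewer cells of a type and less RNA per cell cannot be told apart.

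Promoter windows show what sequence lies ahead of some of the called genes. RefSeq windows on GRCm38.p6, running from 250 bases before to 50 bases after a start site, were found for 35 of the 42 genes, 41 windows in all. Both strands were searched for the ERR element TCAAGGTCA, for its core AAGGTCA, which lies inside it, and for the letters AGGTCA repeated in the same direction with 1 base between, a direct repeat. The 4 windows below belong to the genes called between groups whose window held the ERR element or whose difference was largest, and capitals mark the ERR element or its core on either strand.
Acsl6, chr11:54303574-54303873, plus strand: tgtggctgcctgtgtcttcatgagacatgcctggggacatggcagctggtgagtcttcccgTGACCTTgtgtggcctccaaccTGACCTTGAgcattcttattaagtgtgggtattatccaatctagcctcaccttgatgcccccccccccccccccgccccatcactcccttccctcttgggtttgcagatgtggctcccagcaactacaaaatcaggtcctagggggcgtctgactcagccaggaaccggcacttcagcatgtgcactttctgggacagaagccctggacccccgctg
Slc27a2, chr2:126552774-126553073, plus strand: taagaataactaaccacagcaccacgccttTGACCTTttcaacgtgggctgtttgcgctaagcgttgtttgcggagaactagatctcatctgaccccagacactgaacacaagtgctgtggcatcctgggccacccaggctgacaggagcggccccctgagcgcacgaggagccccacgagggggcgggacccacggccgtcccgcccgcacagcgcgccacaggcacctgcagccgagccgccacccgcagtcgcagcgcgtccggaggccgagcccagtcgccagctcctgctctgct
Cpt1a, chr19:3323051-3323350, plus strand: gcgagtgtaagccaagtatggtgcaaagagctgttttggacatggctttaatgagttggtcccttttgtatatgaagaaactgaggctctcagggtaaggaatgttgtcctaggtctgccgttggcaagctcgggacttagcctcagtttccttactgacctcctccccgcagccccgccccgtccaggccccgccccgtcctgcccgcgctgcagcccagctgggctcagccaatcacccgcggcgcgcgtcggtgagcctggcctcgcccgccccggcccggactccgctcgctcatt
Acadl, chr1:66863260-66863559, minus strand: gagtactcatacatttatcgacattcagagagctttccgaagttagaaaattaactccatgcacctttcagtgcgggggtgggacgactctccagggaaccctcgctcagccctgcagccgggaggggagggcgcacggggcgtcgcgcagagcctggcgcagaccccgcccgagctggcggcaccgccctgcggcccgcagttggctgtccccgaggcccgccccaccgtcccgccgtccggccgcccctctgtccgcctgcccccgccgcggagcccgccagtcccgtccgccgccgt

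The full ERR element stood in 1 of the 41 windows, that of Acsl6 printed above, which is 1 of 3 windows of that gene; 0.423% of all 32851 windows held it. Its core stood in 3 of the 35 genes with a window, Acsl6, Slc27a2 and Acadm, against 5.38% of 27025 genes. The windows of Cpt1a and Acadl held neither, which says only that these letters are not in those windows. None of the 41 windows held the direct repeat, and 0.0396% of all windows did. A match is a description of the sequence and not a binding site.

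KO/mock against WT/mock asks, if the labels hold, what loss of ERRb changed. Acsl5, an acyl-CoA synthetase, was 1.47-fold higher in KO/mock cells. Cpt1a, the rate-limiting enzyme of long-chain fatty acid entry into mitochondria, stood at 0.592 times its WT/mock level, and Acsl6, Acad11 and the peroxisomal oxidase gene Acox3 fell by less. In all, 5 of the 39 genes were called at an adjusted p under 0.05 (limma), 1 higher and 4 lower. Of all 22180 genes 5.58% were called, 2.11% higher and 3.47% lower, and of the 9761 genes with a mean of at least 6, 10.8%, with 4.19% higher and 6.64% lower. Of the 34 members with such a mean, 5 were called, 1 higher and 4 lower, or 14.7%. The median difference was -0.027 over the 39 genes, 0.0042 over all genes and 0.020 over genes with a mean of at least 6. The KO/mock arrays lay wholly above the WT/mock arrays for 3 of the 39 genes and wholly below for 7, where 8.44% and 7.48% of all genes did. Of the 34 members with a mean of at least 6, 2 and 7 did so. Of the 9761 such genes, 1576 and 1276 did. The count of called members was 3 without clone 8-3, 2 without clone 8-4 and 1 without clone 5-2. It was 3 without any 1 of the 4 arrays of clones 8-4 and 5-2 and 3 in a fit of only these 2 groups. On clone averages, 2 clones against 2, it was 0.

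KO/ERRb-wt against KO/mock asks, if the labels hold, what the virus changed in knockout cells. Slc27a2, a fatty acid transport protein that also activates very long chains, was 2.10-fold higher. Acadl, the long-chain acyl-CoA dehydrogenase, stood at 0.582 times its KO/mock level and Cpt1a at 0.695 times. Acox3, Hadh and Crot were also lower. Of the 39 genes 6 were called, 1 higher and 5 lower (limma). Of all genes 4.40% were called, 1.24% higher and 3.17% lower, and of those with a mean of at least 6, 8.30%, with 1.77% higher and 6.53% lower. Of the 34 members with such a mean, 6 were called, 1 higher and 5 lower, or 17.6%. The median difference was -0.13 over the 39 genes, 0.017 over all genes and -0.039 over genes with a mean of at least 6. The KO/ERRb-wt arrays lay wholly above the KO/mock arrays for 2 genes and wholly below for 11, where 7.31% and 9.69% of all genes did. Of the 34 members with a mean of at least 6, 1 and 11 did so. Of the 9761 such genes, 858 and 1874 did. Among all genes called, 28% were higher in KO/ERRb-wt cells as deposited, 40.2% after quantile normalization and 19.8% after median centring of the arrays. Of the 39 genes, 1 was then called higher and 3 lower after quantile normalization, and 1 higher and 6 lower after centring. The count of called members was 2 without either KO/ERRb-wt clone and 1 without clone 8-3, and 3 without any 1 of the 4 arrays of clones 12-1 and 8-3. On clone averages, 2 clones against 2, it was 0.

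KO/ERRb-wt against WT/mock asks how far the transduced knockout cells were from cells with the intact gene. Every called gene of the carnitine shuttle and of both oxidation routes was lower in KO/ERRb-wt cells except Acadm and Acaa1b, while the called uptake and activation genes went both ways. Cpt1a and Slc27a2 lay at 0.411 and 2.57 times their WT/mock levels. Of the 39 genes 20 were called, 5 higher and 15 lower (limma). Of all genes 20.8% were called, 8.82% higher and 12.0% lower, and of those with a mean of at least 6, 37.8%, with 14.9% higher and 23.0% lower. Of the 34 members with such a mean, 19 were called, 4 higher and 15 lower, or 55.9%. The median difference was -0.14 over the 39 genes, 0.031 over all genes and -0.017 over genes with a mean of at least 6. The KO/ERRb-wt arrays lay wholly above the WT/mock arrays for 5 genes and wholly below for 17, where 13.5% and 15.0% of all genes did. Of the 34 members with a mean of at least 6, 4 and 17 did so. Of the 9761 such genes, 2079 and 2754 did. The count of called members was 12 without clone 12-1, 13 without clone 12-3 and 12 without clone 5-2. Fits on clone averages, 2 clones against 2, called 7 genes: Slc27a2, Acsl5 and Acaa1b, higher, and Cpt1a, Acadl, Acad11 and Acox3, lower. The share of all genes called on clone averages is not given here, for this or the other comparisons.

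**Figure D1:**
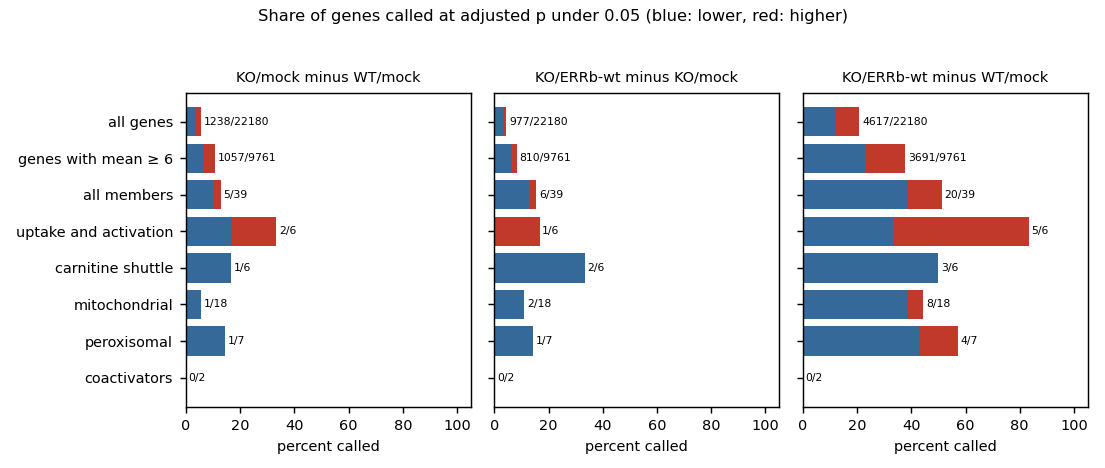
Percent of genes called at an adjusted p under 0.05 (horizontal axis) in each comparison, for all genes, genes with a mean of 6 or more, the 39 genes and each step; blue is lower, red is higher, and the numbers are called over measured. In KO/ERRb-wt minus WT/mock, 20 of the 39 genes were called, 15 of them lower.

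The 3 comparisons share arrays, so they are set side by side and not counted as separate evidence. Over all 3, 21 of the 39 genes were called at least once and 18 never, and Cpt1a and Acox3 were called in all 3. The same counts over all genes are not given here. Between KO/ERRb-wt and WT/mock alone, 20.8% of all genes and 37.8% of those with a mean of at least 6 were called. For each of the 5 genes called between KO/mock and WT/mock cells, the KO/ERRb-wt mean lay farther from the WT/mock mean than the KO/mock mean did. How many of all genes called there did the same is not given here, so this is no trait of the 5. Besides clone averages, left-out arrays or clones and the threshold on the size of the difference, other processing choices ended the calls of Crot, Hadh and Slc27a2 between KO/ERRb-wt and KO/mock, of Crat, Acadm, Decr2, Hsd17b4, Slc27a2 and Acsl6 between KO/ERRb-wt and WT/mock, and of Acsl6 and Acox3 between KO/mock and WT/mock. The other 20 of the 31 calls held. Among these choices, the second probe set of the gene, described below, was the one that ended the Slc27a2 calls and that of Acsl6 between KO/ERRb-wt and WT/mock. Between the clones of one label none of the 39 genes was called (limma; 2 genes had an unadjusted p under 0.05 in KO/ERRb-wt, 8 in KO/mock and 6 in WT/mock). Of all genes 0% were called between the KO/ERRb-wt clones, 0.00902% between the KO/mock clones and 0% between the WT/mock clones. These shares are at an adjusted p under 0.05, and the share of all genes at an unadjusted p is not given here. With 2 arrays against 2 and so few calls over all genes, the lack of calls does not show that the clones were alike. Among the 39 genes the largest difference between such clones was 0.39, for Slc27a2 in KO/mock. Some called group differences were smaller, such as 0.21 for Acadm between KO/ERRb-wt and WT/mock.

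**Figure D2:**
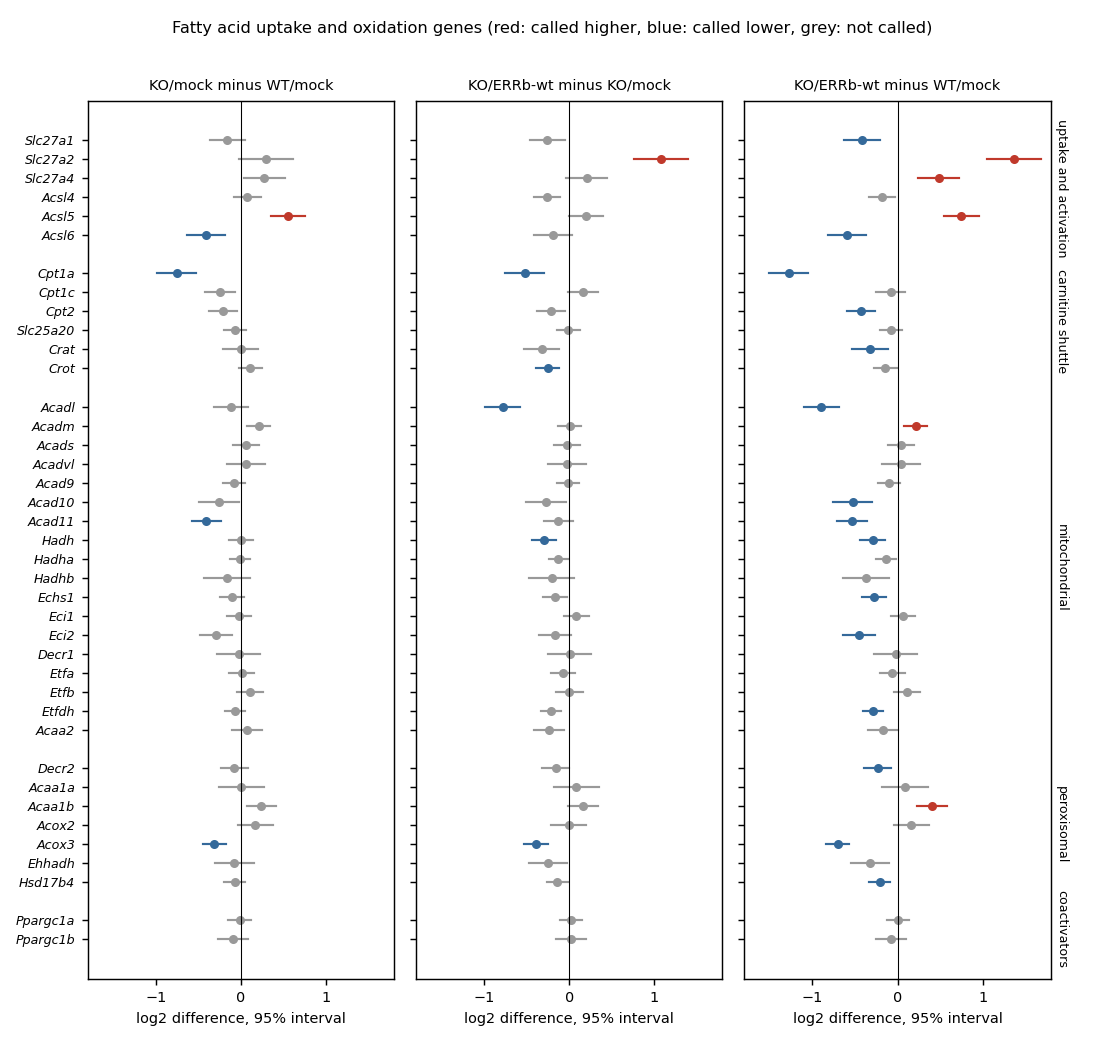
Log2 difference (point) with its 95% interval (line) for the 39 genes, grouped by step, in the 3 comparisons; red marks genes called higher, blue genes called lower and grey genes not called. Slc27a2 at 1.36 and Cpt1a at -1.28 in KO/ERRb-wt minus WT/mock were the farthest from 0.

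Uptake and activation had 6 measured genes, of which 5 (83.3%) were called between KO/ERRb-wt and WT/mock cells, 3 higher and 2 lower. Beside this and the steps below, 20.8% of all genes and 37.8% of those with a mean of at least 6 were called. Slc27a2 (FATP2) read 8.02, 7.70, 7.51 and 7.50 on the KO/ERRb-wt arrays, 6.43, 6.39, 6.77 and 6.84 on the KO/mock arrays, and 6.38, 6.04, 6.48 and 6.37 on the WT/mock arrays. The KO/ERRb-wt arrays stood apart from both other groups, which overlapped. The difference was 1.07 ± 0.15 (SE, 4 arrays against 4) from KO/mock (limma, adjusted p = 0.00345) and 1.36 ± 0.15 from WT/mock (adjusted p = 0.0001), and that of KO/mock from WT/mock was 0.29 ± 0.15 (adjusted p = 0.361). Without clone 8-3 the call against KO/mock ended (adjusted p = 0.0736). A second, dim Slc27a2 probe set, with a mean of 4.15, read 4.17, 4.16 and 4.12 on average in KO/ERRb-wt, KO/mock and WT/mock cells and was not called in any comparison (limma). Slc27a4 (FATP4), a transporter of long chains, read 7.01, 7.16, 7.28 and 6.90 on the KO/ERRb-wt arrays, 7.02, 6.80, 6.77 and 6.94 on the KO/mock arrays, and 6.38, 6.52, 6.74 and 6.78 on the WT/mock arrays. It was higher in KO/ERRb-wt than in WT/mock cells, at 0.48 ± 0.11 (limma, adjusted p = 0.0111), a call that ended without clone 5-2 or 12-1 (adjusted p up to 0.137). Slc27a1 (FATP1), best known as an insulin-responsive transporter of muscle and fat, read 7.34, 7.23, 7.23 and 7.41 on the KO/ERRb-wt arrays, 7.63, 7.76, 7.37 and 7.47 on the KO/mock arrays, and 7.84, 7.70, 7.79 and 7.54 on the WT/mock arrays. The difference from WT/mock was -0.42 ± 0.10 in KO/ERRb-wt cells (adjusted p = 0.011), with no overlap between those groups; the call ended without clone 5-2, 12-1 or 12-3 (adjusted p up to 0.109).

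The long-chain acyl-CoA synthetases did not move together. Acsl5 read 7.84, 7.86, 7.70 and 7.74 on the KO/ERRb-wt arrays, 7.71, 7.59, 7.44 and 7.61 on the KO/mock arrays, and 6.88, 6.93, 7.05 and 7.28 on the WT/mock arrays. Every knockout array, transduced or not, lay above every WT/mock array. The difference from WT/mock was 0.75 ± 0.092 in KO/ERRb-wt cells (limma, adjusted p = 0.000267) and 0.55 ± 0.092 in KO/mock cells (adjusted p = 0.00573), and the KO/mock call ended without clone 5-2 or 8-3 (adjusted p up to 0.095). Acsl6, best known from brain, read 6.25, 6.21, 5.90 and 6.18 on the KO/ERRb-wt arrays, 6.35, 6.52, 6.19 and 6.23 on the KO/mock arrays, and 6.87, 6.80, 6.58 and 6.67 on the WT/mock arrays. Its KO/ERRb-wt and KO/mock arrays overlapped and both lay below the WT/mock arrays, with differences of -0.60 ± 0.10 (limma, adjusted p = 0.00205) and -0.41 ± 0.10 (adjusted p = 0.0483). The KO/mock call ended when any of 10 of the 12 arrays was left out, that is any but KO/ERRb-wt clone 12-3 replicate 1 and KO/mock clone 8-3 replicate 2 (adjusted p up to 0.135). A second Acsl6 probe set with a mean of 3.78 was not called in any comparison. Its differences from WT/mock were 0.094 in KO/ERRb-wt cells, where the sign is turned, and -0.014 in KO/mock cells. Acsl4, which prefers arachidonic acid, was not called: its differences were -0.26 between KO/ERRb-wt and KO/mock and -0.18 between KO/ERRb-wt and WT/mock.

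**Figure D3:**
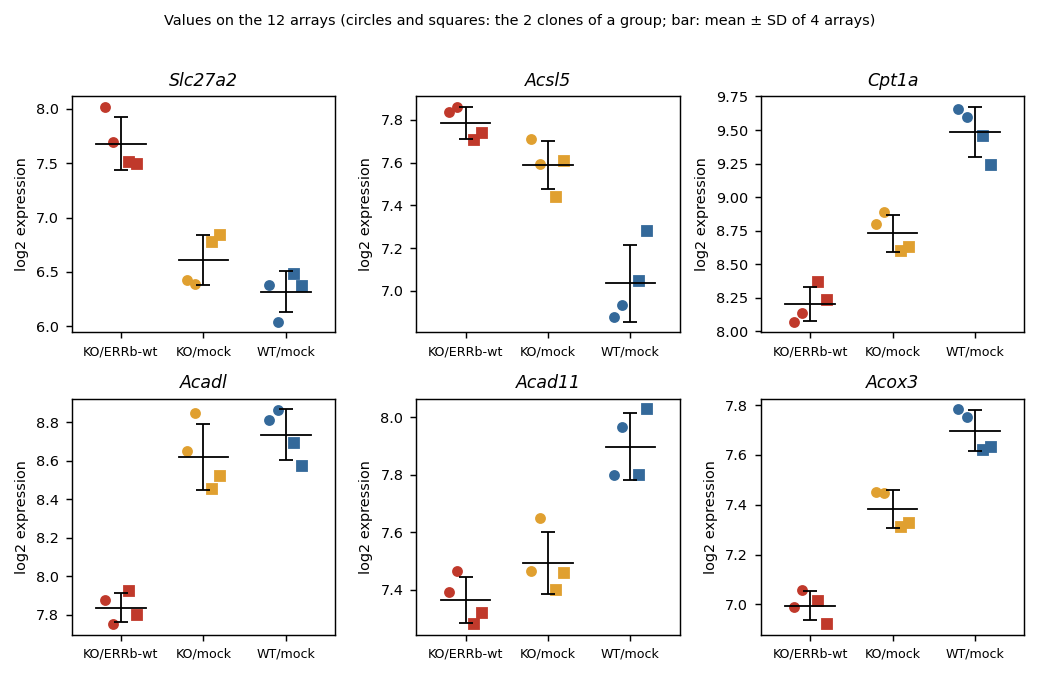
Log2 expression (vertical axes, each panel on its own scale) of 6 genes on the 12 arrays by group; circles and squares are the 2 clones of a group in the order named in the text, horizontal bars are means and error bars SD of 4 arrays. Slc27a2 and Acadl separate the KO/ERRb-wt arrays from both others, and Acad11 and Acsl5 separate the WT/mock arrays.

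The carnitine shuttle had 6 measured genes, of which 3 (50%) were called between KO/ERRb-wt and WT/mock cells, all lower. Cpt1a, on the outer mitochondrial membrane, read 8.07, 8.14, 8.37 and 8.24 on the KO/ERRb-wt arrays, 8.80, 8.89, 8.60 and 8.63 on the KO/mock arrays, and 9.66, 9.59, 9.45 and 9.24 on the WT/mock arrays. The groups did not overlap in any of the 3 pairs. Cpt1a was at 0.411 times its WT/mock level in KO/ERRb-wt cells, a difference of -1.28 ± 0.11 (SE; limma, adjusted p = 1.92e-05), and at -0.76 ± 0.11 from WT/mock in KO/mock cells (adjusted p = 0.00198). Both calls held without any single array or clone. On clone averages the KO/ERRb-wt call held and the KO/mock call ended. The further difference of -0.53 ± 0.11 between KO/ERRb-wt and KO/mock (adjusted p = 0.0224) ended when either KO/ERRb-wt clone 12-1 array, KO/ERRb-wt clone 12-3 replicate 2 or either KO/mock clone 8-3 array was left out (adjusted p up to 0.071). Cpt2, which returns the acyl group to CoA on the inner membrane, read 7.68, 7.53, 7.68 and 7.57 on the KO/ERRb-wt arrays, 7.94, 7.85, 7.69 and 7.85 on the KO/mock arrays, and 8.15, 8.11, 7.91 and 8.00 on the WT/mock arrays. Cpt2 was lower by 0.43 in KO/ERRb-wt than in WT/mock cells, without overlap (limma, adjusted p = 0.00239), while neither step through KO/mock was called, at -0.22 and -0.21.

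Crat and Crot handle acetyl and medium-chain groups. Crat, the carnitine acetyltransferase, read 6.73, 6.72, 6.97 and 6.71 on the KO/ERRb-wt arrays, 7.15, 7.30, 7.06 and 6.91 on the KO/mock arrays, and 7.12, 7.24, 6.98 and 7.09 on the WT/mock arrays. Its KO/ERRb-wt arrays lay below the WT/mock arrays, with a difference of -0.32 ± 0.095 (limma, adjusted p = 0.0376). The call ended when any of 7 arrays was left out: either KO/ERRb-wt clone 12-1 array, KO/ERRb-wt clone 12-3 replicate 2, KO/mock clone 8-3 replicate 1, either WT/mock clone 5-2 array or WT/mock clone 5-5 replicate 2 (adjusted p up to 0.103). The second Crat probe set pointed the other way, at 0.25 (adjusted p = 0.104), so the gene's direction depends on the probe set. Crot, the peroxisomal carnitine octanoyltransferase, read 8.60, 8.56, 8.63 and 8.54 on the KO/ERRb-wt arrays, 8.93, 8.85, 8.70 and 8.87 on the KO/mock arrays, and 8.71, 8.69, 8.73 and 8.78 on the WT/mock arrays. Crot was lower by 0.25 in KO/ERRb-wt than in KO/mock cells, without overlap (limma, adjusted p = 0.0465), and leaving out any array other than KO/mock clone 8-4 replicate 1 ended the call (adjusted p up to 0.12). Slc25a20, the carnitine-acylcarnitine carrier, and Cpt1c, the brain isoform, were not called; their differences between KO/ERRb-wt and WT/mock cells were -0.076 (95% interval -0.21 to 0.055) and -0.082 (-0.26 to 0.092).

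Mitochondrial oxidation had 18 measured genes, of which 8 were called between KO/ERRb-wt and WT/mock cells, 1 higher and 7 lower. This share of 44.4% lay near the 37.8% of all genes with a mean of at least 6, a limit that all of the 18 but Hadhb met. Acadl read 7.88, 7.75, 7.92 and 7.80 on the KO/ERRb-wt arrays, 8.65, 8.85, 8.45 and 8.52 on the KO/mock arrays, and 8.81, 8.86, 8.69 and 8.57 on the WT/mock arrays. The KO/ERRb-wt arrays lay below all others, and the KO/mock and WT/mock arrays overlapped. The difference was -0.78 ± 0.094 (SE) from KO/mock (limma, adjusted p = 0.00205), -0.90 ± 0.094 from WT/mock (adjusted p = 8.87e-05) and -0.12 ± 0.094 between KO/mock and WT/mock (adjusted p = 0.641). Both KO/ERRb-wt calls held without any single array or clone. On clone averages the call against WT/mock held and that against KO/mock ended. Acadm, the medium-chain dehydrogenase, went the other way and read 10.53, 10.64, 10.58 and 10.50 on the KO/ERRb-wt arrays, 10.56, 10.49, 10.55 and 10.64 on the KO/mock arrays, and 10.29, 10.27, 10.39 and 10.45 on the WT/mock arrays. It was higher by 0.21 in KO/ERRb-wt than in WT/mock cells (limma, adjusted p = 0.034), and the call ended without either KO/ERRb-wt clone 12-1 array, KO/ERRb-wt clone 12-3 replicate 1, either WT/mock clone 5-2 array or WT/mock clone 5-5 replicate 1 (adjusted p up to 0.0919). It was the only 1 of the 18 called higher. Acads and Acadvl, the short-chain and very-long-chain dehydrogenases, were not called in any comparison, with intervals of -0.11 to 0.19 and -0.19 to 0.26 for KO/ERRb-wt minus WT/mock.

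Acad11 and Acad10 are less well known members of the dehydrogenase family. Acad11 read 7.39, 7.46, 7.28 and 7.32 on the KO/ERRb-wt arrays, 7.47, 7.65, 7.40 and 7.46 on the KO/mock arrays, and 7.80, 7.96, 7.80 and 8.03 on the WT/mock arrays. Its KO/ERRb-wt and KO/mock arrays overlapped, and both lay below the WT/mock arrays, with differences of -0.53 ± 0.079 (limma, adjusted p = 0.000779) and -0.41 ± 0.079 (adjusted p = 0.0143). The KO/mock call ended without clone 5-2, 5-5 or 8-4 (adjusted p up to 0.19). Acad10 read 6.52, 6.34, 6.25 and 6.29 on the KO/ERRb-wt arrays, 6.68, 6.81, 6.52 and 6.49 on the KO/mock arrays, and 7.09, 6.99, 6.68 and 6.75 on the WT/mock arrays. Acad10 was lower by 0.53 in KO/ERRb-wt than in WT/mock cells (limma, adjusted p = 0.00552), without overlap, though the call ended without clone 5-2 or 12-3 (adjusted p up to 0.0777). Acad9, which also takes part in assembly of respiratory complex I, was not called, at -0.10 in the same comparison.

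The later steps of the mitochondrial spiral were represented among the calls by Echs1 and Hadh. Echs1, the short-chain enoyl-CoA hydratase, read 8.97, 8.92, 8.94 and 9.03 on the KO/ERRb-wt arrays, 9.24, 9.22, 9.04 and 9.02 on the KO/mock arrays, and 9.23, 9.22, 9.30 and 9.20 on the WT/mock arrays. Its KO/ERRb-wt arrays all lay below the WT/mock arrays, with a difference of -0.27 ± 0.065 (limma, adjusted p = 0.0132), and the call ended without clone 5-2, 5-5, 12-1 or 12-3 (adjusted p up to 0.0981). Hadh, the short-chain hydroxyacyl-CoA dehydrogenase, read 10.34, 10.36, 10.45 and 10.56 on the KO/ERRb-wt arrays, 10.75, 10.77, 10.62 and 10.76 on the KO/mock arrays, and 10.79, 10.72, 10.65 and 10.74 on the WT/mock arrays. The KO/ERRb-wt arrays lay below all others, with differences of -0.30 ± 0.066 from KO/mock (limma, adjusted p = 0.0371) and -0.29 ± 0.066 from WT/mock (adjusted p = 0.0104). The first of these ended without either KO/ERRb-wt clone 12-1 array, KO/ERRb-wt clone 12-3 replicate 1, either KO/mock clone 8-3 array or KO/mock clone 8-4 replicate 2 (adjusted p up to 0.103), and the second without clone 5-2 or 12-1 (adjusted p up to 0.12). Hadha and Hadhb, the subunits of the trifunctional protein, were not called, at -0.14 and -0.37 between KO/ERRb-wt and WT/mock.

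Eci2 and Etfdh were lower in KO/ERRb-wt cells with no overlap against WT/mock. Eci2, an isomerase for unsaturated chains found in mitochondria and peroxisomes, read 7.02, 6.85, 6.93 and 6.95 on the KO/ERRb-wt arrays, 7.03, 7.14, 7.22 and 7.01 on the KO/mock arrays, and 7.40, 7.61, 7.34 and 7.22 on the WT/mock arrays. Its difference from WT/mock was -0.46 ± 0.086 in KO/ERRb-wt cells (limma, adjusted p = 0.00357), and -0.29 ± 0.086 in KO/mock cells (adjusted p = 0.0919). Etfdh, which passes electrons from the dehydrogenases to ubiquinone, read 9.16, 9.07, 8.99 and 9.10 on the KO/ERRb-wt arrays, 9.31, 9.32, 9.26 and 9.30 on the KO/mock arrays, and 9.36, 9.43, 9.33 and 9.35 on the WT/mock arrays. Its difference was -0.29 ± 0.054 from WT/mock (limma, adjusted p = 0.00346) and -0.22 ± 0.054 from KO/mock (adjusted p = 0.0526) in KO/ERRb-wt cells. The partners of Etfdh, Etfa and Etfb, were not called, at -0.063 and 0.11 between KO/ERRb-wt and WT/mock. Eci1, Decr1 and the thiolase gene Acaa2 were not called either, at 0.064, -0.023 and -0.17.

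**Figure D4:**
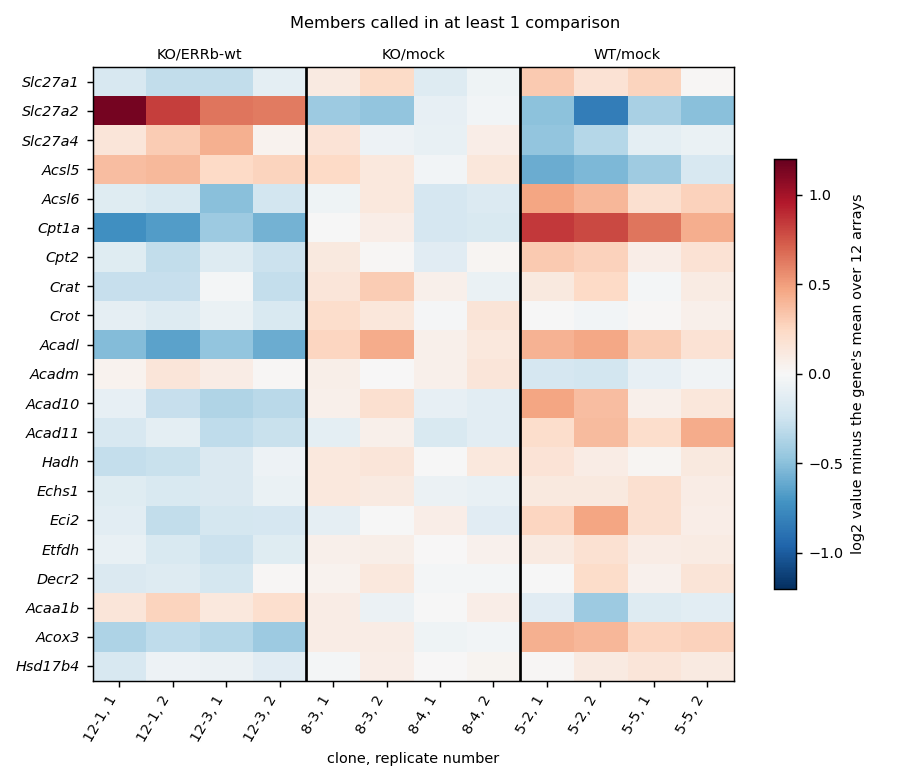
Log2 value minus the gene's own mean over 12 arrays (colour, red above and blue below) for the 21 genes called in at least 1 comparison (rows) on the 12 arrays (columns, by group, clone and replicate number). Cpt1a and Acox3 are lowest on the KO/ERRb-wt arrays, intermediate on the KO/mock arrays and highest on the WT/mock arrays, and Slc27a2 is high on the KO/ERRb-wt arrays.

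Peroxisomal oxidation had 7 measured genes, of which 4 (57.1%) were called between KO/ERRb-wt and WT/mock cells, 1 higher and 3 lower. Acox3, an oxidase of branched chains, read 6.99, 7.06, 7.01 and 6.92 on the KO/ERRb-wt arrays, 7.45, 7.45, 7.31 and 7.33 on the KO/mock arrays, and 7.78, 7.75, 7.62 and 7.63 on the WT/mock arrays. The groups did not overlap in any pair. The KO/ERRb-wt difference was -0.70 ± 0.063 from WT/mock (limma, adjusted p = 3.26e-05) and -0.39 ± 0.063 from KO/mock (adjusted p = 0.00893), and KO/mock differed from WT/mock by -0.31 ± 0.063 (adjusted p = 0.0171). The last call ended without either KO/mock clone 8-4 array or either WT/mock clone 5-2 array (adjusted p up to 0.0569), and that against KO/mock without clone 8-3, 12-1 or 12-3 (adjusted p up to 0.144). Hsd17b4, the D-bifunctional protein of the hydration and dehydrogenation steps, read 9.01, 9.14, 9.14 and 9.08 on the KO/ERRb-wt arrays, 9.18, 9.29, 9.21 and 9.24 on the KO/mock arrays, and 9.22, 9.32, 9.36 and 9.32 on the WT/mock arrays. Its KO/ERRb-wt arrays lay below the WT/mock arrays, with a difference of -0.21 ± 0.056 (limma, adjusted p = 0.0236), and the call ended without KO/ERRb-wt clone 12-1 replicate 1, KO/ERRb-wt clone 12-3 replicate 2, WT/mock clone 5-2 replicate 2 or WT/mock clone 5-5 replicate 1 (adjusted p up to 0.0665).

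Acaa1b and Acaa1a encode closely similar peroxisomal thiolases, whose probe sets may not tell the transcripts apart. Acaa1b, with a mean below 6, read 5.94, 6.06, 5.92 and 6.00 on the KO/ERRb-wt arrays, 5.89, 5.73, 5.79 and 5.88 on the KO/mock arrays, and 5.66, 5.35, 5.64 and 5.66 on the WT/mock arrays. It was higher by 0.40 in KO/ERRb-wt than in WT/mock cells (limma, adjusted p = 0.0048), without overlap and without losing the call to any single array or clone left out. Acaa1a was not called, at 0.088 ± 0.12 in that comparison. Decr2, a reductase for unsaturated chains, read 8.69, 8.71, 8.65 and 8.88 on the KO/ERRb-wt arrays, 8.90, 8.99, 8.84 and 8.84 on the KO/mock arrays, and 8.85, 9.08, 8.92 and 9.02 on the WT/mock arrays. The KO/ERRb-wt and WT/mock arrays overlapped, and the difference of -0.24 ± 0.074 (limma, adjusted p = 0.0497) still passed without KO/ERRb-wt clone 12-3 replicate 2 or without WT/mock clone 5-2 replicate 1; any of the other 10 ended it (adjusted p up to 0.132). Ehhadh, the bifunctional enzyme of straight chains, and Acox2, the only 1 of the 39 genes on chromosome 14, were not called, at -0.33 and 0.16.

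Neither coactivator was called in any comparison. Ppargc1a (PGC-1 alpha) read 3.15, 3.14, 3.06 and 3.14 on the KO/ERRb-wt arrays, 2.98, 3.10, 3.21 and 3.11 on the KO/mock arrays, and 3.09, 3.10, 3.09 and 3.18 on the WT/mock arrays. The values are near the low end of the table, whose lowest entry was 1.59, and all groups overlapped. Its difference was 0.020 between KO/ERRb-wt and KO/mock (95% interval -0.11 to 0.15) and -0.016 between KO/mock and WT/mock (-0.15 to 0.12). Ppargc1b (PGC-1 beta) read 6.35, 6.21, 6.31 and 6.32 on the KO/ERRb-wt arrays, 6.10, 6.44, 6.27 and 6.30 on the KO/mock arrays, and 6.51, 6.39, 6.33 and 6.27 on the WT/mock arrays. Its intervals were -0.16 to 0.19 for KO/ERRb-wt minus KO/mock, -0.25 to 0.10 for KO/ERRb-wt minus WT/mock and -0.27 to 0.077 for KO/mock minus WT/mock.

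A further 78 genes of fatty acid metabolism, 74 of them measured, were counted in the same fit. Of the 74, 23 were called between KO/ERRb-wt and WT/mock cells, 3 higher and 20 lower, 12 between KO/ERRb-wt and KO/mock, all lower, and 5 between KO/mock and WT/mock, 1 higher and 4 lower (limma). These are 31.1%, 16.2% and 6.76% of the list. In the same order, 20.8%, 4.40% and 5.58% of all genes were called. Of those with a mean of at least 6, 37.8%, 8.30% and 10.8% were. Of those 40 calls, 31 held without any single array and 14 without any single clone. In uptake, storage and release, 3 of 18 measured genes were called against WT/mock, all lower: Acsf2, a medium-chain acyl-CoA synthetase gene, at -1.26 ± 0.13 (SE), Plin2, the coat protein of lipid droplets, at -0.70 ± 0.072, and Pnpla2, the lipase that starts their breakdown, at -0.43 ± 0.065. Plin2 and Pnpla2 were also lower in KO/ERRb-wt than in KO/mock cells, at -0.65 and -0.35, and Acsf2 was lower in KO/mock than in WT/mock cells, at -0.82. The KO/mock call of Acsf2 ended without clone 8-4 or 5-2 (adjusted p up to 0.0901). Lpl, the lipoprotein lipase, was higher in KO/mock than in WT/mock cells, at 0.67 ± 0.16 (limma, adjusted p = 0.0436); leaving out any array but KO/ERRb-wt clone 12-3 replicate 1, KO/mock clone 8-4 replicate 1 or WT/mock clone 5-5 replicate 2 ended that call (adjusted p up to 0.125). Without either KO/mock clone 8-3 array that of Pnpla2 against KO/mock ended (adjusted p up to 0.0555). A second Lpl probe set gave 0.12 in the same comparison as the Lpl call (adjusted p = 0.52). Of 8 genes of carnitine supply and malonyl-CoA control, 1 was called against WT/mock: Acacb, whose malonyl-CoA holds back CPT1, at -0.49 ± 0.094 (limma, adjusted p = 0.00391), which ended without clone 12-1 or 5-2 (adjusted p up to 0.0594).

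Accessory mitochondrial genes had 6 of 16 called between KO/ERRb-wt and WT/mock, all lower. This share of 37.5% was near the 37.8% of all genes with a mean of at least 6. The accessory lists had no limit on level, and 20.8% of all genes were called. Acat1, which acts on ketone bodies and isoleucine, differed by -0.87 ± 0.067 (limma, adjusted p = 1.22e-05), and was also lower in KO/ERRb-wt than in KO/mock cells, at -0.51, and in KO/mock than in WT/mock cells, at -0.36. The enzymes that carry propionyl-CoA, the end of odd chains, towards the citric acid cycle were lower in KO/ERRb-wt than in WT/mock cells: Pcca by 1.00, Mcee by 0.74 and Mmut by 0.48, while Pccb was not called. In KO/ERRb-wt against KO/mock cells Mcee fell by 0.52 and Mmut by 0.35, and without any 1 of the KO/ERRb-wt arrays, either KO/mock clone 8-3 array or KO/mock clone 8-4 replicate 2 that Mmut call ended (adjusted p up to 0.0921). Acot2, an acyl-CoA thioesterase gene, and Acadsb, the dehydrogenase gene of short branched chains, fell against WT/mock by 0.57 and 0.45; Acot2 has close paralogs that its probe set may not tell apart. Some of these calls ended without 1 clone: Acot2 and Acadsb without clone 5-2 (adjusted p up to 0.0558), Acat1 and Mcee against KO/mock without clone 8-3 (up to 0.0975), and Acat1 and Pcca between KO/mock and WT/mock without clone 8-4 or 5-2 (up to 0.155). Accessory peroxisomal genes had 6 of 14 called against WT/mock, 5 of them lower, a share of 42.9% that was also near that 37.8%. Phyh and Hacl1, the enzymes of alpha-oxidation, fell by 0.85 and 0.95, Acbd5, an acyl-CoA-binding protein of the peroxisomal membrane, by 0.40, Pecr, an enoyl-CoA reductase, by 0.29 and Scp2, a thiolase and lipid carrier, by 0.27. Nudt19, a CoA hydrolase, was higher by 0.35. Hacl1 was also lower in KO/mock than in WT/mock cells, at -0.78 (limma, adjusted p = 0.00072). That Hacl1 call held without any single array or clone and ended on clone averages. Pcca and Hacl1 lie on chromosome 14, where the median difference of 342 genes with a mean of at least 6 was -0.48 between KO/ERRb-wt and WT/mock and -0.41 between KO/mock and WT/mock, against -0.0084 and 0.026 for the 9380 genes elsewhere; the part of that shift in these results was not tested. Phyh and Scp2 were also lower than in KO/mock cells, by 0.69 and 0.28; that Scp2 call ended without the same arrays as Mmut (adjusted p up to 0.0809), and that of Phyh without clone 12-1 or 8-3 (up to 0.0821). A second Phyh probe set was not called, at -0.23 from KO/mock and -0.30 from WT/mock in KO/ERRb-wt cells. Against WT/mock, the call of Scp2 ended without clone 12-1, 12-3 or 5-5 (adjusted p up to 0.0646), that of Acbd5 without clone 12-3 or 5-2 (up to 0.0678) and that of Pecr without clone 5-5 (up to 0.0738). The Nudt19 call ended without either KO/ERRb-wt clone 12-1 array, KO/ERRb-wt clone 12-3 replicate 1 or either WT/mock clone 5-2 array (adjusted p up to 0.086).

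Regulators had 7 of 18 called between KO/ERRb-wt and WT/mock cells, 2 higher and 5 lower, Esrrb included. This share of 38.9% was near the 37.8% of all genes with a mean of at least 6. The list had no limit on level, and 20.8% of all genes were called. Prkaa2, a catalytic subunit of the energy sensor AMPK, differed by -1.08 ± 0.10 from WT/mock (limma, adjusted p = 4.23e-05) and -0.80 ± 0.10 from KO/mock (adjusted p = 0.00252), and the call against KO/mock ended without clone 8-3 (adjusted p = 0.0665). Pdk4, the kinase that diverts pyruvate from oxidation when fat is burned, differed by -1.09 ± 0.13 from WT/mock (limma, adjusted p = 0.00027); its difference of -0.56 ± 0.13 from KO/mock (adjusted p = 0.0468) ended as a call when any array but KO/ERRb-wt clone 12-1 replicate 2, WT/mock clone 5-2 replicate 1 or WT/mock clone 5-5 replicate 2 was left out (adjusted p up to 0.128). Sirt3, the mitochondrial deacetylase, and Gabpa, a subunit of a factor that drives respiratory chain genes, fell by 0.45 and 0.24 against WT/mock, calls that ended without clone 5-2 for Sirt3 (adjusted p = 0.0563) and without clone 12-3 or 5-2 for Gabpa (up to 0.0835). Against KO/mock, Gabpa fell by 0.25 and Nrip1, a corepressor of nuclear receptors, by 0.32. The Gabpa call ended without either KO/ERRb-wt clone 12-3 array, either KO/mock clone 8-3 array or KO/mock clone 8-4 replicate 2 (adjusted p up to 0.0652), and that of Nrip1 without any array but the WT/mock clone 5-2 pair (up to 0.128). Hnf4a, a nuclear receptor of liver and gut, and Nrf1, a factor for respiratory genes, were higher than in WT/mock cells by 0.57 and 0.26. The Nrf1 call ended without replicate 1 of either KO/ERRb-wt clone or either WT/mock clone 5-2 array (adjusted p up to 0.0825). No regulator was called between KO/mock and WT/mock.

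**Figure D5:**
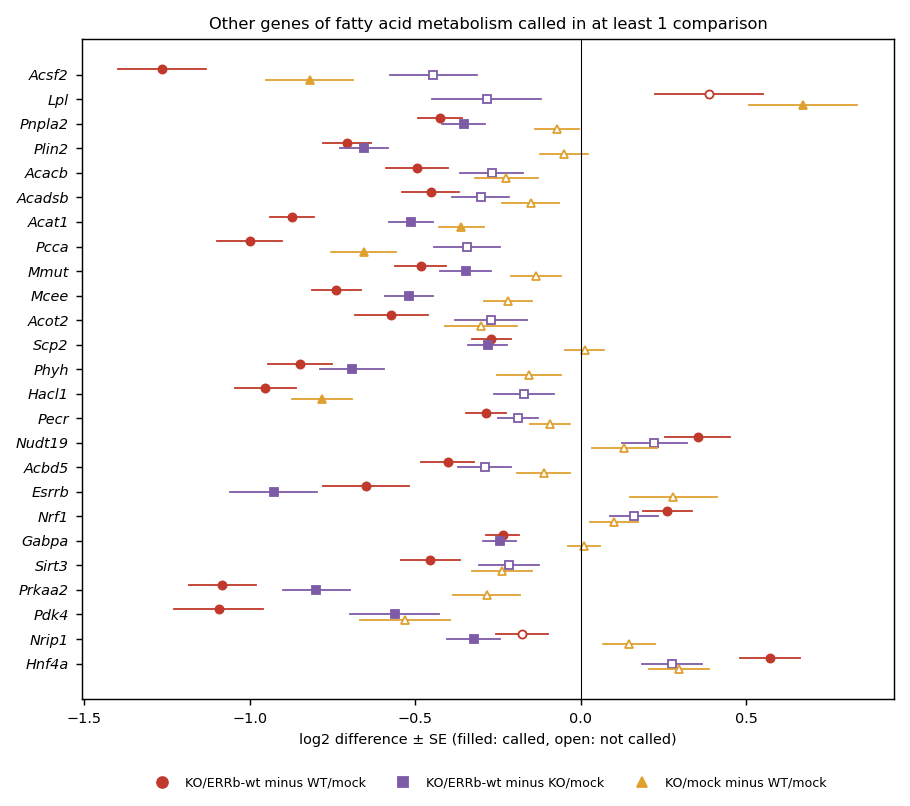
Log2 difference ± SE (horizontal axis) of the other genes of fatty acid metabolism called in at least 1 comparison, with filled symbols for calls; red circles are KO/ERRb-wt minus WT/mock, purple squares KO/ERRb-wt minus KO/mock and orange triangles KO/mock minus WT/mock. Most red circles lie left of 0, with Acsf2 at -1.26 the farthest.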

How the data were processed

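Biotin-labelled cDNA of total RNA from 12 samples was hybridised to MoGene 2.0 ST arrays, per the labels. The deposited log2 values, 1 per probe set and array, came from RMA, and Affymetrix Expression Console is the program that the submitters' processing notes name, without versions. RMA gives the arrays a common distribution of probe intensities, so a shift shared by most genes is largely removed. The probe set values kept small differences, with array medians between 5.00 and 5.07. The values carry no detection call.

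Gene symbols came from the platform annotation, which gave 1 symbol to 23521 of 41345 probe sets, several to 1814 and none to 16010. All probe sets entered 1 model of the 3 groups in limma 3.58.1 (statmod 1.5.0, R 4.3.3), and clone entered as a random block (correlation 0.0286), two-sided tests and Benjamini-Hochberg adjustment over all probe sets; a call is an adjusted p under 0.05. With arrays left out, that correlation was kept. The steps were tested on simulated data. Group members, the other gene lists and the rule for named genes (every gene called, and the coactivators) were chosen with earlier results of these data known. Alternatives concerned the clone and replicate blocks, clone averages, normalization, dim and repeated probe sets, the prior, array weights, probe set choice and left-out arrays and clones.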

Additional observations from a re-analysis of the deposited data

Results flagged for a closer look

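Within the 4 arrays of a group, 5 of 117 sets of values (39 genes in 3 groups) had 1 array set apart from the other 3 by a larger share of the range than Dixon's 95% critical value, where chance gives about 1 in 20. Crat read 6.97 on KO/ERRb-wt clone 12-3 replicate 1, against 6.71 to 6.73 on the other KO/ERRb-wt arrays. Hadh read 10.62 on KO/mock clone 8-4 replicate 1, against 10.75 to 10.77. Acaa1b read 5.35 on WT/mock clone 5-2 replicate 2, against 5.64 to 5.66. Ppargc1a read 3.06 on KO/ERRb-wt clone 12-3 replicate 1, against 3.14 to 3.15, and 3.18 on WT/mock clone 5-5 replicate 2, against 3.09 to 3.10.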

How the results depend on the processing

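Of the 31 calls of the 39 genes over the 3 comparisons, 2 changed sign, both on the second probe set of the gene for KO/ERRb-wt against WT/mock: Crat, at 0.25, and Acsl6, at 0.094. The others kept their sign under every setting run for them. Of the 31, 22 held without any single array, 13 without any single clone, and 20 under every other setting run except clone averages and the threshold on the size of the difference. Leaving out dim probe sets gave no value for Acaa1b. For KO/mock against WT/mock, 5 genes were called; the count was 0 on clone averages (limma; 8 at an unadjusted p under 0.05), 3 with only the 2 groups compared, 8 with dim probe sets left out and 2 with a log2 difference of at least 0.5, and it ran from 3 to 5 without 1 array and from 1 to 5 without 1 clone. For KO/ERRb-wt against KO/mock, 6 were called; the count was 0 on clone averages (limma; 10 at an unadjusted p under 0.05) and 3 with a difference of at least 0.5, and ran from 3 to 6 without 1 array and from 1 to 5 without 1 clone. For KO/ERRb-wt against WT/mock, 20 were called; the count was 7 on clone averages and 8 with a difference of at least 0.5, and ran from 16 to 19 without 1 array and from 12 to 18 without 1 clone. Shares of all genes on clone averages or at an unadjusted p are not given here. Between clones of a label the count of 0 stayed at 0 in both alternatives run. With the replicate block the counts were 4, 4 and 20 in the same order. Replicate numbers are given within clones, and the labels do not say whether they mark a shared culture. Of 15 pairs of clones, 1 had deviations of same-numbered arrays from their clone means correlated over 0.1 (range -0.043 to 0.14). The numbers were not used to pair the samples, though this check cannot exclude a batch that acts on part of the genes. Leaving out dim probe sets adjusts over fewer tests and also moves the clone correlation, to 0.172 against 0.0286, and clone averages leave fewer samples; the cause of the changes in count was not tested. No detection call sets a floor for the 5 genes with a mean under 6.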

Other observations

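Among the genes without a probe set of their own, Cpt1b, the muscle form of CPT1, shares a probe set with Chkb, a choline kinase gene, and Gm44502. That probe set averaged 5.90 on the KO/ERRb-wt arrays, 6.87 on the KO/mock arrays and 7.14 on the WT/mock arrays. Its difference was -0.96 ± 0.11 between KO/ERRb-wt and KO/mock (SE; limma, adjusted p = 0.00181) and -1.23 ± 0.11 between KO/ERRb-wt and WT/mock (adjusted p = 3.5e-05), with no overlap in either pair. Which of the 3 genes gave the signal cannot be told apart. The probe set shared by Acsl3 and Utp14b was not called, at -0.16 and -0.13 in the same comparisons.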
